A study of Mus musculus with 5 samples.

Results

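The transcripts described are those of 6 genes that act in glucose synthesis: Pcx, Pck1, Pck2, Fbp1, G6pc and Slc37a4. They were chosen by symbol and each matched 1 of the 27998 genes in every count matrix. Levels were read in 8697 proximal tubule-like nuclei and in the other nephron classes of 5 mouse kidney libraries, made by droplet single-nucleus RNA sequencing. All mice were males of 10 to 12 weeks that carried Six2-TGC, Rosa26rtTA and pTRE-H2BeGFP and ate doxycycline food (625 mg per kg), so that cells descended from Six2-expressing nephron progenitors carry a GFP-tagged histone in their chromatin. Sorting took nuclei with DNA stain and then split them by GFP.

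There was 1 library for each of 5 groups. GFP-positive nuclei came from kidneys whose pedicles had both been clamped and released (ischaemia-reperfusion injury, IRI), taken 64 h, 96 h or 28 d later. GFP-positive and GFP-negative nuclei also came from kidneys labelled as without injury, and the submitters gave both of these libraries the same serum values. The text of the study mentions sham surgery, so whether the animals without injury were operated on is not clear. Serum creatinine, in mg/dL, was 0.122 without injury and, after IRI, 0.375 (64 h), 0.312 (96 h) and 0.144 (28 d). Blood urea nitrogen, in mg/dL, was 26.1 without injury and 37.0 (64 h), 91.8 (96 h) and 31.7 (28 d). Creatinine was thus highest at 64 h and urea nitrogen at 96 h. The transgene labels nephron tubules rather than proximal cells alone, and the number of animals behind each library is not stated in the labels.

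The kidney and the liver are the organs that release newly made glucose into the blood, and in the kidney this is the work of the proximal tubule. Pyruvate carboxylase (Pcx) turns pyruvate into oxaloacetate in mitochondria, and phosphoenolpyruvate carboxykinase turns oxaloacetate into phosphoenolpyruvate, in the cytosol (Pck1) or in mitochondria (Pck2). After a run of steps shared with glycolysis, fructose bisphosphatase (Fbp1) takes off a phosphate, and a transporter in the endoplasmic reticulum (Slc37a4) hands glucose phosphate to the catalytic subunit of the phosphatase (G6pc) that frees glucose. The convoluted S1 segment reabsorbs most filtered glucose, and the straight S3 segment lies in the outer medulla.

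On the mouse genome build GRCm38, Pck1 (ENSMUSG00000027513) lies at chr2:173153048-173159273 on the plus strand and G6pc (ENSMUSG00000078650) at chr11:101367561-101377903 on the plus strand. Slc37a4 (ENSMUSG00000032114) lies at chr9:44396852-44402968 and Pcx (ENSMUSG00000024892) at chr19:4510472-4621752, both on the plus strand. Fbp1 (ENSMUSG00000069805) lies at chr13:62864753-62888282 on the minus strand and Pck2 (ENSMUSG00000040618) at chr14:55540266-55551242 on the plus strand. The promoters of Pck1, G6pc and Slc37a4 are printed because their transcripts were called different between S1-marked and S3-marked nuclei in at least 1 library, G6pc and Slc37a4 in the opposite direction to Pck1. Slc37a4 was called in the GFP-negative library alone. They are RefSeq sequences of build GRCm38.p6, each with 250 bases before and 50 bases after an annotated start, at chr2:173152823-173153122, chr11:101367466-101367765 and chr9:44396696-44396995 (the first of 3 annotated Slc37a4 starts), all on the plus strand. Capitals mark every match, on either strand, to the motifs searched: TATAAA, the core ACGTCA of the cyclic AMP response element, the HNF4 motif CAAAGTCCA, the FOXO motif TGTTTAC, and an HNF1 palindrome with 1 free base.
Pck1: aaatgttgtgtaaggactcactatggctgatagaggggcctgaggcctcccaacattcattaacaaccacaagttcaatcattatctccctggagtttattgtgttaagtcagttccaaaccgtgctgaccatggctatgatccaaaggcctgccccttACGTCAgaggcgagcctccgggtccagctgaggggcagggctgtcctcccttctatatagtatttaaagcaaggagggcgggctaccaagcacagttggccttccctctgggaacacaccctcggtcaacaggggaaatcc
G6pc: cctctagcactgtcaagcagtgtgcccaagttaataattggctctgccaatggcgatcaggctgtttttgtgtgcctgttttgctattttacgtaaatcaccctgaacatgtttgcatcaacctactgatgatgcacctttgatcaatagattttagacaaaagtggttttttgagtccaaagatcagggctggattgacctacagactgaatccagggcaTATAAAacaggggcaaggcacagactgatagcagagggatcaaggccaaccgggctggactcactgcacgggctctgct
Slc37a4: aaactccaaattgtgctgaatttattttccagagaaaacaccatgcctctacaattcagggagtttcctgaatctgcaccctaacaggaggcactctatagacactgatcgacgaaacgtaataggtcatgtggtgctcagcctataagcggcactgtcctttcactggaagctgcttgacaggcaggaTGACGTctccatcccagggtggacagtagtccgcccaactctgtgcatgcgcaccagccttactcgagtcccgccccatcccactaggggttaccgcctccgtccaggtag
Pck1 held the response-element core, its first base at position -91 from the start, and G6pc held TATAAA from position -29. Slc37a4 held the core on the other strand, printed as TGACGT from position -61. Of 32851 mouse promoters of this length, 13.6% held TATAAA, 7.51% the core, 3.65% the FOXO motif, 0.475% the HNF4 motif and 0.00913% the HNF1 palindrome. The Fbp1, Pck2 and Pcx windows held none of these letter strings.

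The libraries held 16666 barcodes, of which 16359 passed the filters, with 1922002 to 7153971 unique molecular identifiers (UMIs) each. The median was 1793.5 UMIs per barcode without injury, 1290 by 64 h, 484 by 96 h and 982 by 28 d in GFP-positive nuclei, and 964 in the GFP-negative library. Any pair of libraries shared at most 20 barcodes. Nuclei fell into 25 clusters, of which 7 were proximal tubule-like (PT-like) by their markers and 4 stayed without a name. Levels are UMIs of a gene per 1000000 UMIs of the summed nuclei (CPM). Each carries an exact Poisson 95% interval that covers counting error only, so no p-value is given. A gene is called higher or lower where the ratio of 2 sums is at least 1.5-fold, its interval leaves out 1 and the sums hold at least 20 UMIs of it.

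Segments were marked nucleus by nucleus within PT-like clusters. A nucleus with a UMI of Slc5a2 or Slc5a12, the low-affinity glucose carrier SGLT2 and a lactate carrier, and none of Slc7a13 or Cyp7b1, an amino acid carrier and an oxysterol hydroxylase, was S1-marked. The reverse pattern was S3-marked. Of PT-like nuclei, 44.4% were S1-marked without injury, 54.4% by 64 h, 28.3% by 96 h and 46.1% by 28 d in the GFP-positive libraries, and 26.3% in the GFP-negative library. The S3-marked share was 26.8% without injury, 16.6% by 64 h, 9.77% by 96 h and 23.7% by 28 d, and 59.9% in the GFP-negative library. At 96 h, 60.7% of PT-like nuclei carried no UMI of the 4 genes, so the marked nuclei of that shallow library are a minority. Gatm, the creatine synthesis enzyme known from S1 and not used for the marks, stood at 1171 CPM in S1-marked and 130 CPM in S3-marked nuclei without injury, and at 1514 CPM and 52.5 CPM in the GFP-negative library. Slc22a7, an organic anion carrier of S3, stood at 20.4 CPM in S1-marked and 127 CPM in S3-marked nuclei without injury. The S3 mark changed in content after injury, since Cyp7b1 itself was at 1182 CPM in S3-marked nuclei without injury, 17.5 CPM at 64 h, 289 CPM at 96 h and 1738 CPM at 28 d.

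Along the proximal tubule, the transcript of G6pc, which acts in the last step of glucose release, stood higher in S1-marked nuclei. The Pck1 transcript was higher in S3-marked nuclei of the uninjured and 28 d GFP-positive libraries. G6pc was above its S3 level in S1-marked nuclei of all 5 libraries and was called higher in 4 of them. Slc37a4 also lay above 1 in all 5 ratios, by small amounts in most. Pck1 was called lower in S1-marked nuclei of 2 libraries, and Fbp1 and Pcx were called in neither direction in any library. Pck2, the mitochondrial carboxykinase, had too few UMIs to compare.

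G6pc stood at 120 CPM in S1-marked and 71.7 CPM in S3-marked nuclei of the GFP-positive library without injury, a ratio of 1.68 (1.32 to 2.14). In the GFP-negative library it stood at 121 CPM in S1-marked and 64.4 CPM in S3-marked nuclei, a ratio of 1.89 (1.03 to 3.35). After IRI, S1-marked nuclei held 75.1 CPM at 64 h, 86.7 CPM at 96 h and 125 CPM at 28 d, and S3-marked nuclei held 49.4, 43.9 and 61.3 CPM at the same times. The ratio was 1.52 (1.01 to 2.36) at 64 h. It was 1.97 (0.834 to 5.38) in the 96 h library, the only one not called, and 2.04 (1.42 to 2.99) in the 28 d library. The S1 level was thus the higher in each library, whichever sort or time it came from. The uninjured call was kept in 9 of 10 alternatives and ended at 1.28 with nuclei thinned to 600 UMIs, while the 64 h call was kept in 1 of 9 (1.24 to 1.52). Slc37a4, which feeds the phosphatase, stood at 94.6 CPM in S1-marked and 68.9 CPM in S3-marked nuclei without injury, a ratio of 1.37 (1.07 to 1.78). At 28 d it stood at 176 CPM in S1-marked and 124 CPM in S3-marked nuclei, a ratio of 1.42 (1.08 to 1.87), and its ratios at 64 h and 96 h were 1.10 and 1.01. It was called higher in the GFP-negative library alone, with 160 CPM in S1-marked and 88.1 CPM in S3-marked nuclei, a ratio of 1.81 (1.08 to 2.97), a call kept in 6 of 9 alternatives.

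Pck1 ran the other way in the uninjured and 28 d GFP-positive libraries. Without injury it stood at 311 CPM in S1-marked and 510 CPM in S3-marked nuclei, a ratio of 0.610 (0.545 to 0.682). At 28 d it stood at 278 CPM in S1-marked and 489 CPM in S3-marked nuclei, a ratio of 0.570 (0.482 to 0.673). The other libraries did not show this difference. The ratio was 0.899 (0.692 to 1.16) in the GFP-negative library, where Pck1 was high in both marks (492 CPM in S1-marked and 547 CPM in S3-marked nuclei). It was 0.869 (0.715 to 1.06) at 64 h and 1.46 (0.980 to 2.21) at 96 h, with 225 and 320 CPM in S1-marked nuclei and 260 and 220 CPM in S3-marked nuclei. Fbp1 stood at 423 CPM in S1-marked and 411 CPM in S3-marked nuclei without injury, a ratio of 1.03 (0.922 to 1.15), and Pcx at 250 and 258 CPM, a ratio of 0.967 (0.841 to 1.11). These intervals leave out a 1.5-fold difference in either direction for both genes in that library. Pcx had its largest ratio at 64 h, 1.39 (1.10 to 1.76), and Fbp1 its smallest at 28 d, 0.810 (0.663 to 0.991), both under the fold of a call. Pck2 gave 2.27 CPM in S1-marked and 3.45 CPM in S3-marked nuclei without injury.

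**Figure D1:**
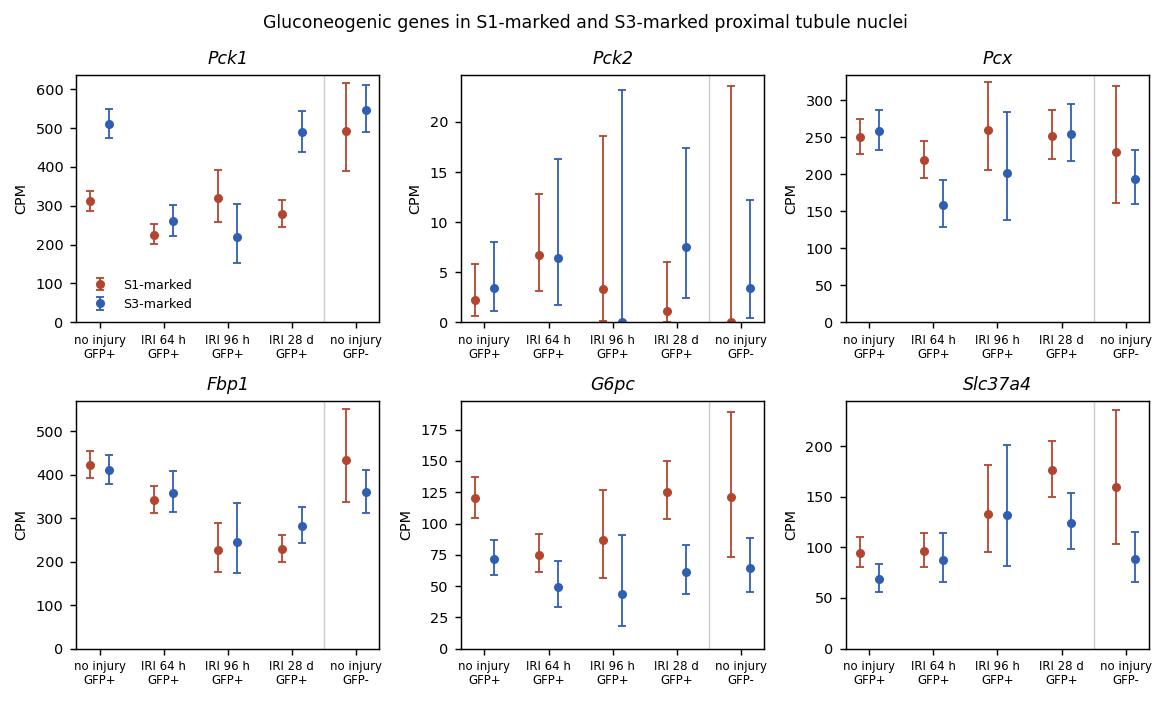
Level of each gene (y axis, CPM) in S1-marked (red) and S3-marked (blue) PT-like nuclei of the 5 libraries (x axis), with points for summed levels and bars for 95% counting intervals. G6pc is higher in S1-marked nuclei of every library (120 against 71.7 CPM without injury), and Pck1 is lower in S1-marked nuclei without injury (311 against 510 CPM) and at 28 d.

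Over 30 gene and library pairs, 5 were called higher in S1-marked nuclei, 2 lower, 18 neither, and the 5 of Pck2 had under 20 UMIs. The 5 higher calls became 1 at 600 UMIs per nucleus and 2 with nuclei marked by the marker pair with more UMIs, and the GFP-negative G6pc call was kept in 7 of 9 alternatives. The share of all genes called higher was 9.12% in the GFP-negative library and, in GFP-positive nuclei, 6.63% without injury, 4.36% by 64 h, 4.29% by 96 h and 5.45% by 28 d. The shares called lower were 12.3% in the GFP-negative library, 9.3% without injury, 5.79% by 64 h, 7.55% by 96 h and 9.72% by 28 d. S1-marked nuclei were shallower, with medians of 1670 and 2191 UMIs in S1-marked and S3-marked nuclei without injury and of 866 and 1174 UMIs at 28 d. At an equal 600 UMIs per nucleus, G6pc was seen in 5.91% of S1-marked and 4.89% of S3-marked nuclei without injury, and in 7.19% and 3.31% at 28 d. At 96 h the thinned shares were 3.31% in S1-marked and 3.82% in S3-marked nuclei, against the direction of the CPM, and no order is read from them. Pck1 was seen in 15.5% of S1-marked and 25.2% of S3-marked nuclei without injury and in 15.6% and 22.7% at 28 d.

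**Figure D2:**
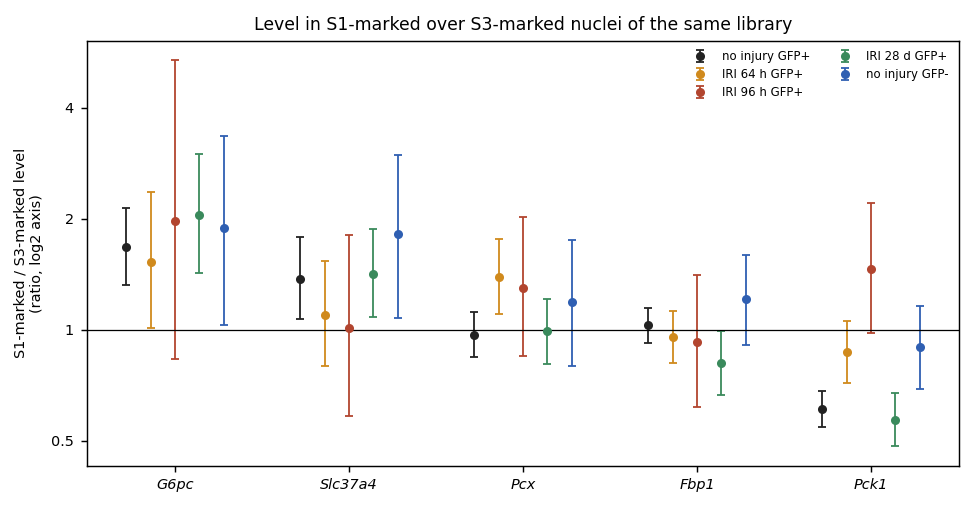
Ratio of the level in S1-marked to that in S3-marked nuclei of the same library (y axis, log scale) for 5 genes (x axis), with bars for 95% counting intervals and colours for libraries. All 5 G6pc ratios lie above 1 (1.52 to 2.04), and the Pck1 ratios of the uninjured and 28 d GFP-positive libraries lie at 0.610 and 0.570.

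The marks were split further, after the data had been seen, by whether an S1-marked nucleus held the early marker Slc5a2 and whether an S3-marked nucleus held Cyp7b1. In the GFP-positive library without injury, G6pc stood at 137 CPM in S1-marked nuclei with Slc5a2, 88.2 CPM in those with Slc5a12 only, 78.8 CPM in S3-marked nuclei with Slc7a13 only and 46.6 CPM in those with Cyp7b1. At 28 d the same order gave 133, 119, 77.0 and 21.2 CPM. G6pc thus had its highest level at the Slc5a2 end and its lowest in Cyp7b1 nuclei in both libraries, though adjacent bands were not all apart. Slc5a2 nuclei over those with Slc5a12 only gave 1.55 (1.13 to 2.16) without injury and 1.12 (0.762 to 1.64) at 28 d. Nuclei with Slc7a13 only over those with Cyp7b1 gave 1.69 (0.971 to 3.15) without injury and 3.63 (1.30 to 14.0) at 28 d. The first band over the last gave a ratio of 2.93 (1.72 to 5.36) without injury and 6.29 (2.32 to 23.9) at 28 d. Pck1 ran against it, with 294, 345, 511 and 507 CPM without injury and 299, 263, 418 and 668 CPM at 28 d over the same bands. Its first band over the last gave 0.580 (0.480 to 0.703) without injury and 0.448 (0.346 to 0.580) at 28 d.

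The GFP-negative library did not follow that order throughout. Its Cyp7b1 band was again the lowest for G6pc, with 26.9 CPM, and the Slc5a2 band over it gave 3.78 (1.58 to 8.98). Its band with Slc7a13 only stood at 236 CPM, from 25 UMIs in 13 of 46 nuclei with at most 5 in a single nucleus, above the 101 and 183 CPM of the S1 bands. Pck1 there gave 1.02 (0.759 to 1.35) for the first band over the last. The 64 h and 96 h libraries held 7 and 26 nuclei with Cyp7b1, too few to read an order. At 96 h Pck1 stood at 393, 293, 237 and 124 CPM over the bands, with 3 UMIs in the last, and the first over the last gave 3.17 (0.991 to 16.2), against the direction of the uninjured and 28 d libraries.

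**Figure D3:**
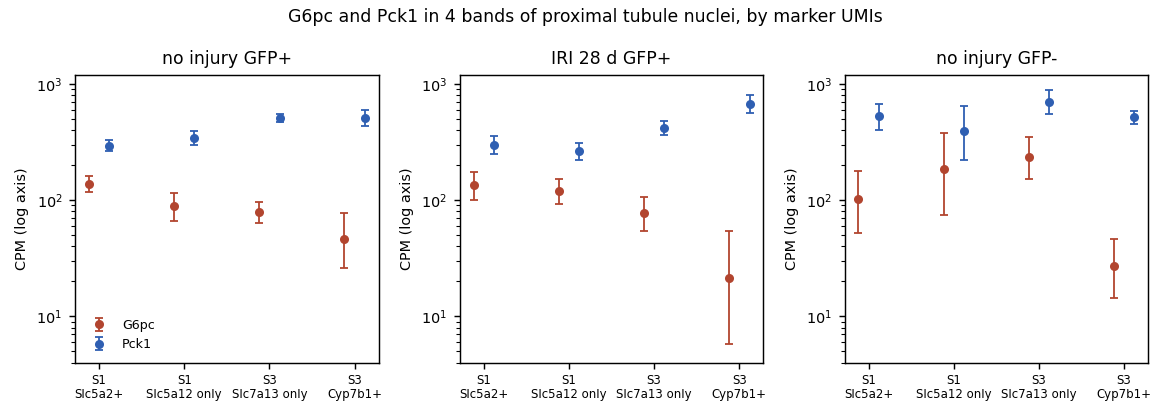
Level (y axis, CPM on a log scale) of G6pc (red) and Pck1 (blue) in 4 bands of PT-like nuclei defined by marker UMIs (x axis, S1 to S3) in 3 libraries, with bars for 95% counting intervals. Without injury and at 28 d G6pc is highest in Slc5a2 nuclei (137 and 133 CPM) and lowest in Cyp7b1 nuclei (46.6 and 21.2 CPM), and Pck1 is higher in both S3 bands than in both S1 bands.

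Among the PT-like clusters the same contrast was seen without use of the marks, although clusters share their genes with them and none of the 6 genes took part in clustering. G6pc stood at 134 CPM in the cluster led by Slc5a2, Slc5a12 and Gatm and at 33.9 CPM in the cluster led by Cyp7b1 and Slc22a7. Pck1 stood at 303 CPM in that S1-led cluster and at 555 CPM in that S3-led cluster. A further PT-like cluster of 304 nuclei, with Slc7a13 at 490 CPM and Cyp7b1 at 195 CPM, stood at 22.4 CPM for G6pc. Its Pck1 level was 186 CPM, below that of the S1-led cluster.

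Most pairs of 5 genes with a segment outside the proximal tubule were called in favour of PT-like nuclei, and Pck2 mostly had too few UMIs to compare. PT-like nuclei were called higher than thick ascending limb (TAL)-like nuclei in 25 of 25 pairs of the 5 genes and libraries, with ratios of 2.34 to 17.1, where 17.3% of all gene tests were called higher. Against TAL-like, distal convoluted, connecting tubule, intercalated, collecting duct principal and thin limb-like nuclei together, 95 of 150 pairs were called higher and 1 lower, where 11.1% and 12% of all gene tests were. Pck1 and Fbp1 were each called higher in 22 of their 25 pairs, Pcx in 19, G6pc in 17, Slc37a4 in 15 and Pck2 in 0, and 23 of the 25 Pck2 pairs had under 20 UMIs. The single lower call was Pck2 against TAL-like nuclei without injury in GFP-positive nuclei, with 3.50 CPM in PT-like and 14.7 CPM in TAL-like nuclei, a ratio of 0.238 (0.0894 to 0.736), where 16.8% of gene tests against TAL-like nuclei were called lower. It rests on 17 UMIs in PT-like and 6 UMIs in TAL-like nuclei.

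The GFP-negative library gave the widest gaps to TAL-like nuclei for Pck1 and G6pc. Its 8 carry-over genes, proximal transporters that other segments should lack, stood at a median of 3.00% to 18.0% of their PT-like level in other classes. Pck1 stood at 554 CPM in PT-like and 72.5 CPM in TAL-like nuclei, a ratio of 7.65 (5.63 to 10.6). Fbp1 stood at 375 CPM in PT-like and 61.2 CPM in TAL-like nuclei, a ratio of 6.13 (4.37 to 8.82). G6pc stood at 82.7 CPM in PT-like and 4.83 CPM in TAL-like nuclei, a ratio of 17.1 (5.62 to 85.0) that rests on 3 UMIs in TAL-like nuclei. Slc37a4 stood at 102 CPM in PT-like and 17.7 CPM in TAL-like nuclei, a ratio of 5.79 (3.08 to 12.0). PT-like nuclei held 22.3% of the UMIs of that library but 65.1% of the G6pc, 59.5% of the Slc37a4, 59.2% of the Fbp1, 58.2% of the Pck1, 41.9% of the Pcx and 5.41% of the Pck2 UMIs.

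In the order of classes with at least 30 nuclei, PT-like nuclei came first or second in every library for Pck1, Fbp1, G6pc, Slc37a4 and Pcx, and between rank 4 and rank 9 for Pck2. Of the 11 such classes of the GFP-negative library, Pck1 was followed by urothelium-like nuclei at 185 CPM, macrophage and dendritic-like at 162 CPM and endothelium-like at 145 CPM, whose intervals overlap each other but not that of PT-like nuclei (506 to 606 CPM). Fbp1 was followed by macrophage and dendritic-like nuclei at 236 CPM from 16 UMIs in 14 of 119 nuclei, which is 63.0% of the PT-like level where the carry-over genes stood at 0 to 28.9%. G6pc came after thin limb-like nuclei (87.2 CPM from 5 UMIs in 2 nuclei) and before connecting tubule-like nuclei (69.1 CPM from 10 UMIs in 5 nuclei), and the intervals of these 3 classes overlap. The first class outside the proximal tubule that was clearly lower was the intercalated type B-like class, at 16.4 CPM.

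In the GFP-positive library without injury, the carry-over genes were higher in other classes and reached a median of 19.0% of their PT-like level in TAL-like and 55.1% in collecting duct principal-like nuclei. Pck1 stood at 419 CPM in PT-like and 106 CPM in TAL-like nuclei, a ratio of 3.96 (2.93 to 5.49), so its TAL-like level was 25.2% of the PT-like one, within the 5.51% to 27.4% of the carry-over genes. Fbp1 at 14.5% and G6pc at 27.1% also lay within that range. Pcx at 27.4% lay at its upper end, and Slc37a4 at 30.4% lay above it. Levels within the range cannot be told apart from carry-over. An endothelium-like class of 46 nuclei stood at 442 CPM for Pck1 and 501 CPM for Fbp1, with carry-over genes at a median of 73.3%, and their part in those levels was not tested. Over 32 pairs of a class and a library, G6pc lay above the carry-over range in 5 and below it in 7, Pck1 above in 12, Fbp1 above in 10, and Pcx and Slc37a4 each above in 14.

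Pcx departed from the other genes in the collecting duct, though not there alone, and pyruvate carboxylase also refills the citric acid cycle in most tissues. In the GFP-negative library it stood at 201 CPM in PT-like and 150 CPM in principal-like nuclei, a ratio of 1.35 (1.04 to 1.76) that was not called. This principal-like level came from 88 UMIs in 60 of 446 nuclei and was 74.3% of the PT-like one, where the carry-over genes stood at 3.51% to 14.4%. Pck1 at 19.3% and Slc37a4 at 18.3% lay just above that range, and G6pc at 8.23% and Fbp1 at 13.2% within it. In the GFP-positive library without injury, Pcx stood at 251 CPM in PT-like and 370 CPM in principal-like nuclei (36 UMIs in 39 nuclei), a ratio of 0.679 (0.488 to 0.974), again short of a call. Urothelium-like nuclei of the GFP-negative library stood at 258 CPM for Pcx (14 UMIs in 36 nuclei), 128% of the PT-like level, where the carry-over genes stood at 0 to 64.9%. In the GFP-positive library, 12 urothelium-like nuclei stood at 430 CPM (10 UMIs) and an unnamed class of 76 nuclei at 297 CPM (34 UMIs). Lrfn4, which lies inside Pcx on the other strand, had at most 2 UMIs in PT-like nuclei of a library.

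**Figure D4:**
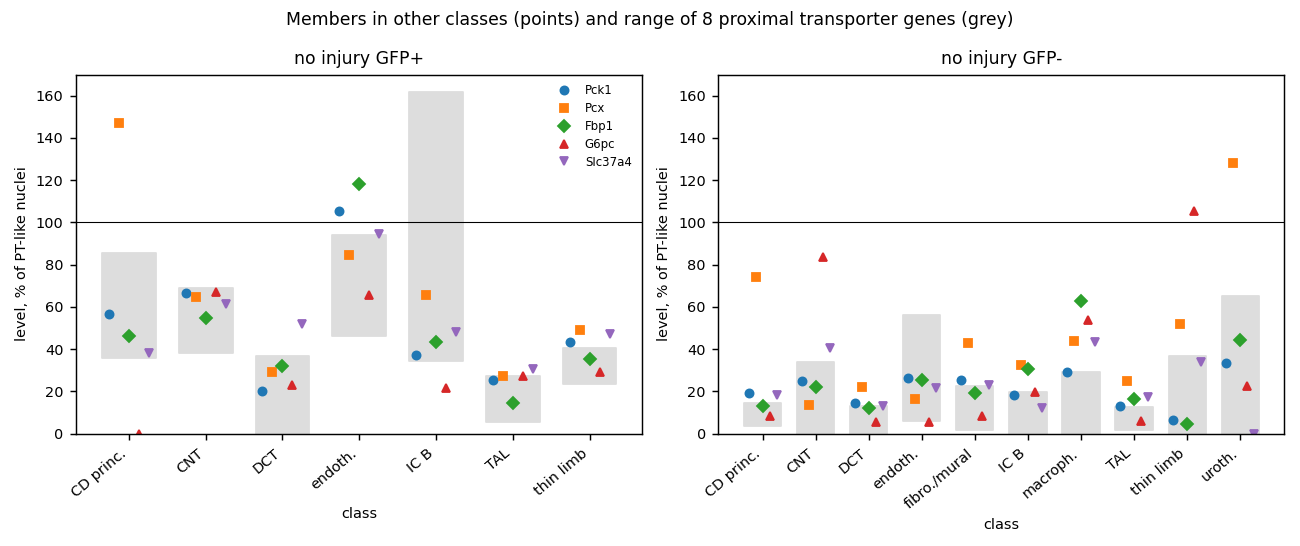
Level of 5 genes in classes outside the proximal tubule as a percentage of their PT-like level (y axis), by class (x axis), in the uninjured GFP-positive (left) and GFP-negative (right) libraries, with grey bars for the range of 8 proximal transporter genes. Most points lie in or near the grey range, and Pcx in collecting duct principal-like nuclei lies above it in both libraries (147% and 74.3%).

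After IRI, Pck1 was called lower in PT-like nuclei at 64 h and 96 h, G6pc at 64 h and Fbp1 at 96 h and 28 d, and the glucose phosphate transporter Slc37a4 was called higher at 28 d. Pcx was not called at any time. In all PT-like nuclei together, Pck1 stood at 419 CPM without injury, 227 CPM at 64 h, 278 CPM at 96 h and 361 CPM at 28 d, and Fbp1 at 424, 342, 256 and 250 CPM. Slc37a4 stood at 80.8, 91.0, 118 and 155 CPM over the same libraries. G6pc stood at 90.7, 59.5, 64.6 and 98.0 CPM, and Pcx at 251, 186, 201 and 247 CPM. By these values Pck1, G6pc and Pcx were lowest at 64 h, whereas Fbp1 was lowest at 28 d. The 28 d ratios to no injury were 1.08 (0.918 to 1.27) for G6pc and 0.984 (0.890 to 1.09) for Pcx. For Pck1 the 28 d ratio was 0.863 (0.796 to 0.935), still below 1. The 64 h and 96 h intervals overlap for G6pc (50.9 to 69.2 and 50.9 to 80.8 CPM) and for Pcx (170 to 202 and 176 to 228 CPM). Those of Fbp1 overlap at 96 h and 28 d (228 to 286 and 230 to 271 CPM). On the trimmed mean scale given below, G6pc, Pcx and Fbp1 are each lowest at 96 h, so no order of these times is read for them. In S3-marked nuclei Pck1 was lower at 96 h (220 CPM) than at 64 h (260 CPM), so no order is read for it either. Of 18 pairs, 5 were called lower and 1 higher. The lower calls of G6pc at 64 h and of Pck1 at 96 h lay close to the threshold and were each kept in 5 of 8 alternatives, at 0.562 to 0.697 and 0.487 to 0.802. The share of all genes called lower was 9.65% at 64 h, 9.76% at 96 h and 5.77% at 28 d, and the share called higher was 21.4%, 31.8% and 10.8%. The median log2 ratio of the genes tested was -0.37, -0.48 and -0.03 for the 6 genes (5 of them at 96 h) and 0.16, 0.28 and 0.06 for all genes. Fewer proximal nuclei with a transcript and less transcript per nucleus cannot be told apart in these sums.

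Split by segment on the CPM scale, Pck1 was called lower in S3-marked nuclei at 64 h and 96 h and in S1-marked nuclei at no time. On the trimmed mean scale given below, Pck1 in S1-marked nuclei was also called lower at 64 h. The marked nuclei lay in different clusters in each library. S3-marked nuclei were mostly in clusters 9 and 13 without injury, 10 by 64 h, 16 and 22 by 96 h, and 9 and 12 by 28 d. S1-marked nuclei were mostly in cluster 8 without injury, 10 by 64 h, 16 by 96 h, and 8 and 12 by 28 d. In S3-marked nuclei Pck1 stood at 510 CPM without injury, 260 CPM at 64 h, 220 CPM at 96 h and 489 CPM at 28 d. The ratios to the library without injury were 0.509 (0.427 to 0.604), 0.431 (0.298 to 0.605) and 0.959 (0.839 to 1.09), called lower at the early times. In S1-marked nuclei it stood at 311, 225, 320 and 278 CPM, with ratios of 0.724 (0.627 to 0.835), 1.03 (0.820 to 1.28) and 0.895 (0.769 to 1.04), none of which was called on the CPM scale. Pcx showed the same split at 64 h, with a ratio of 0.610 (0.484 to 0.763) in S3-marked nuclei, called lower, and of 0.875 (0.752 to 1.02) in S1-marked nuclei. The S3 call of Pcx was kept in 7 of 11 alternatives and its ratio turned to 1.07 at 600 UMIs per nucleus. G6pc was called lower in S1-marked nuclei at 64 h, with 75.1 CPM against 120 CPM without injury and a ratio of 0.625 (0.488 to 0.797). In S3-marked nuclei its ratio at 64 h was 0.689 (0.446 to 1.04), so the direction was alike in both marks. Whether the IRI ratios of the marks differ was not tested beyond these intervals, and at 64 h the S3 mark rested on Slc7a13, with Cyp7b1 in 7 nuclei.

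Fbp1 and Slc37a4 moved in both marks. In S1-marked nuclei Fbp1 stood at 423 CPM without injury, 341 CPM at 64 h, 227 CPM at 96 h and 229 CPM at 28 d. It was called lower at 96 h, with 0.536 (0.412 to 0.688), and at 28 d, with 0.541 (0.462 to 0.631). In S3-marked nuclei it stood at 411, 358, 245 and 282 CPM, called lower at 96 h with 0.595 (0.419 to 0.823) and just short of a call at 28 d with 0.687 (0.580 to 0.810). Slc37a4 stood at 94.6 CPM without injury, 96.2 CPM at 64 h, 133 CPM at 96 h and 176 CPM at 28 d in S1-marked nuclei, and at 68.9, 87.6, 132 and 124 CPM in S3-marked nuclei. At 28 d it was called higher in both, with 1.86 (1.49 to 2.32) in S1-marked and 1.80 (1.33 to 2.43) in S3-marked nuclei, and at 96 h in S3-marked nuclei, with 1.91 (1.13 to 3.09). The 96 h calls in S3-marked nuclei were kept in 6 of 11 alternatives for Fbp1 (0.106 to 0.682) and 7 of 11 for Slc37a4 (1.33 to 4.75). The partners of glucose release therefore differed at 28 d, where the G6pc ratio was 1.04 (0.824 to 1.31) in S1-marked and 0.855 (0.581 to 1.24) in S3-marked nuclei. Of 18 pairs each, S1-marked nuclei held 1 higher and 3 lower calls, and S3-marked nuclei 2 higher and 4 lower. The share of all genes called higher in S1-marked nuclei was 19% at 64 h, 21.4% at 96 h and 9.3% at 28 d, and that called lower was 6.9%, 7.44% and 5.89%. In S3-marked nuclei the shares were 19%, 18% and 9.47% higher and 8.36%, 7.07% and 4.34% lower.

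**Figure D5:**
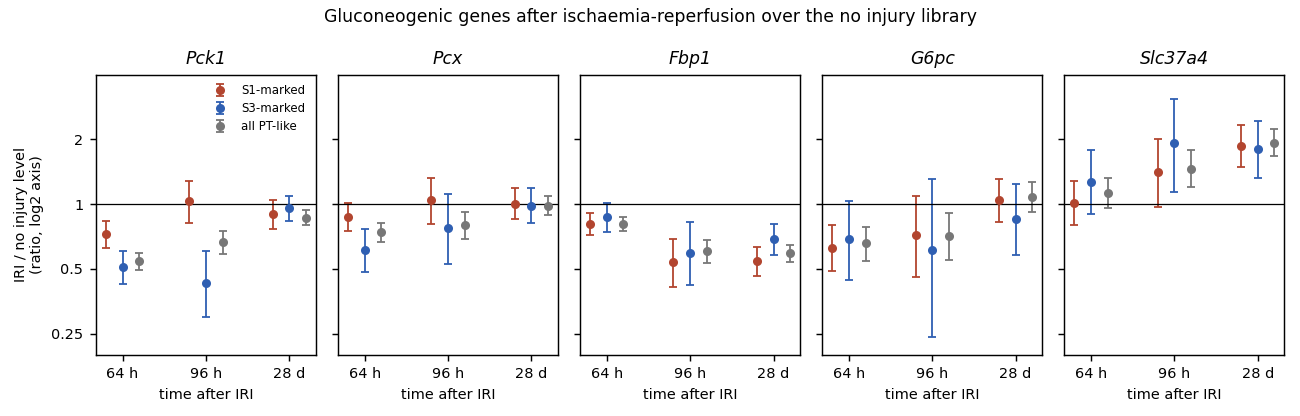
Ratio of each IRI library to the uninjured GFP-positive library (y axis, log scale) by time (x axis) for 5 genes in S1-marked (red), S3-marked (blue) and all (grey) PT-like nuclei, with bars for 95% counting intervals. Pck1 is lowest in S3-marked nuclei at 64 h and 96 h (0.509 and 0.431), Fbp1 lies below 1 at each time, and Slc37a4 lies near 1.8 to 1.9 at 28 d in each set.

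These ratios depend on the scale chosen for the total. Trimmed mean of M-values (TMM) factors lowered the log2 ratios in all PT-like nuclei by 0.21 at 64 h, 0.45 at 96 h and 0.11 at 28 d. On that scale Slc37a4 stood at 0.972 at 64 h and 1.07 (0.877 to 1.30) at 96 h, with 1.78 (1.54 to 2.06) by 28 d, so its higher level holds on both scales at 28 d only. Pck1 stood at 0.467, 0.487 and 0.797, and Fbp1 at 0.696, 0.443 and 0.545. In S1-marked nuclei at 96 h, the Pck1 ratio of 1.03 became 0.762 and the Pcx ratio of 1.04 became 0.770, so their direction flips with the scale. In S1-marked nuclei at 64 h, TMM shifted log2 ratios by -0.189, and the Pck1 ratio of 0.724 then met the rule of a lower call. G6pc at 28 d became 0.999 in all PT-like and 0.973 in S1-marked nuclei. The 96 h library kept the fewest UMIs per nucleus, and the 8 carry-over genes, proximal genes themselves, had median log2 ratios of -0.48 at 64 h, -0.61 at 96 h and -0.18 at 28 d, with 2, 4 and 0 called lower and 0, 0 and 1 called higher. Their part in the lower values was not tested. Weighting the marks by their shares without injury gave Slc37a4 ratios of 1.11, 2.03 and 1.90 and Fbp1 ratios of 0.816, 0.473 and 0.591, so their directions were the same with the mix of marks held as without injury. The weighted 96 h values rest on few UMIs. Nuclei with UMIs of both marker pairs held 27.5% of PT-like UMIs without injury. At 96 h they were 26 nuclei with 5 Slc37a4 and 2 Fbp1 UMIs.

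The neighbouring steps of the pathway were more often called higher than lower at 64 h and 96 h, as were all genes by the shares given above. Of 18 enzymes and carriers that glucose synthesis shares with glycolysis or that supply it, 10 were called higher and 0 lower at 64 h, 9 higher and 2 lower at 96 h, and 2 higher and 1 lower at 28 d. Their median log2 ratio was 0.67 at 64 h, 0.55 at 96 h and 0.00 at 28 d, beside 0.16, 0.28 and 0.06 over all genes. Gpt2, which makes pyruvate from alanine, stood at 181 CPM at 64 h and 75.0 CPM without injury, a ratio of 2.41 (2.11 to 2.77). Tpi1, triose phosphate isomerase, stood at 172 CPM at 64 h and 82.4 CPM without injury, a ratio of 2.09 (1.82 to 2.39), and reached 3.09 (2.65 to 3.60) at 96 h. The lower calls were Mpc1, a subunit of the mitochondrial pyruvate carrier, at 0.557 and Slc25a13, an aspartate-glutamate carrier, at 0.593 at 96 h, and malate dehydrogenase Mdh1 at 0.650 at 28 d. On the TMM scale the list held 6 higher and 0 lower at 64 h, 6 and 3 at 96 h, and 1 and 1 at 28 d.

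Of 10 glycolytic enzymes that oppose the pathway and had enough UMIs, 4 were called higher at 64 h, 6 at 96 h and 1 at 28 d, and 0 lower, with median log2 ratios of 0.20, 0.71 and 0.30. The part called higher was above the share of all genes at 64 h and 96 h and near it at 28 d. Pfkp, a phosphofructokinase that runs opposite to Fbp1, stood at 49.4 CPM at 64 h, 65.4 CPM at 96 h and 32.5 CPM at 28 d, against 19.6 CPM without injury, with ratios of 2.52 (1.93 to 3.31), 3.34 (2.44 to 4.56) and 1.66 (1.21 to 2.27). Pkm, a pyruvate kinase, was called higher at 64 h with 1.87 and at 96 h with 1.76, and on the TMM scale 2, 2 and 1 of the list were higher. The muscle form Fbp2 stood at 27.3 CPM at 64 h and 17.9 CPM without injury, a ratio of 1.52 (1.11 to 2.09), while Fbp1 was at 0.807. Its ratio at 96 h was 2.04 (1.38 to 2.97), and on the TMM scale neither Fbp2 nor G6pc3 was called.

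Of 15 measured regulators of the pathway, 2 were called higher and 1 lower at 64 h, 2 higher and 5 lower at 96 h, and 3 higher and 0 lower at 28 d, with median log2 ratios of 0.10, -0.17 and 0.05. The part called higher was below the share of all genes at 64 h and 96 h and above it at 28 d. The part called lower was above that share at 96 h only. Ppargc1a, a coactivator of Pck1 and G6pc in liver, stood at 154 CPM at 96 h and 316 CPM without injury, a ratio of 0.487 (0.415 to 0.568). Foxo1, a transcription factor restrained by insulin, had a ratio of 0.447 (0.369 to 0.536) at 96 h. Irs2, an insulin receptor substrate, was called lower at 64 h with 0.337 and at 96 h with 0.304. Cebpb, an early-response transcription factor, had ratios of 4.94 (3.00 to 8.43), 12.9 (7.90 to 22.0) and 3.73 (2.16 to 6.58). On the TMM scale 1, 1 and 2 regulators were higher and 1, 8 and 0 lower.

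Between the marks, few neighbours of the pathway followed G6pc or Pck1. Pfkfb3, which makes the sugar bisphosphate that restrains Fbp1, was called lower in S1-marked nuclei of 4 libraries, with 8.50 CPM in S1-marked and 50.3 CPM in S3-marked nuclei without injury, a ratio of 0.169 (0.0900 to 0.297). Irs2 was called lower in S1-marked nuclei of 3 libraries, with 0.494 (0.391 to 0.620) without injury. Ppargc1a was called higher in S1-marked nuclei of the GFP-negative library alone, with 396 CPM in S1-marked and 64.4 CPM in S3-marked nuclei, a ratio of 6.15 (4.04 to 9.47).

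Injury-marked nuclei were called lower than unmarked nuclei of the same clusters for 5 of the 6 genes in at least 1 library. A nucleus of the PT-like clusters, or of the cluster led by Havcr1, Vcam1, Krt20, Csf1 and Cd44, was injury-marked where it held a UMI of Havcr1 or Vcam1, known markers of the injured tubule. The cluster led by those injury genes stayed without a name, so its nuclei are not shown to be proximal. Injury-marked nuclei are not split here between it and the PT-like clusters. There were 39 such nuclei without injury, 205 by 64 h, 242 by 96 h and 110 by 28 d. Within a library, 14 of 24 pairs were called lower in injury-marked than in unmarked nuclei and 0 higher, by 1 pair without injury, 5 by 64 h, 3 by 96 h and 5 by 28 d. The share of all genes called lower was 2.34% without injury, 7.4% by 64 h, 4.88% by 96 h and 5.86% by 28 d, and that called higher was 4.25%, 10%, 4.94% and 6.77%. At 64 h Pck1 stood at 111 CPM in injury-marked and 216 CPM in unmarked nuclei, a ratio of 0.512 (0.379 to 0.678). G6pc stood at 20.9 CPM in injury-marked and 54.7 CPM in unmarked nuclei, a ratio of 0.382 (0.180 to 0.720), and Fbp1 at 146 and 322 CPM, a ratio of 0.453 (0.351 to 0.578). The 8 proximal carry-over genes were lower too, with ratios of 0.172 (Slc6a19) to 0.916 (Slc22a8) at 64 h. At 28 d theirs ran from 0.354 (Slc6a19) to 0.760 (Slc27a2), so the lower levels were not particular to the members. Pck2 had 0 UMIs in injury-marked nuclei of the other libraries and 4 at 28 d against 10 in unmarked nuclei, a ratio of 5.78 that is under the 20 UMIs of a call. At 28 d the G6pc ratio was 0.436 (0.173 to 0.913) and the Pck1 ratio 0.471 (0.314 to 0.681). The 14 lower calls became 4 with a stricter barcode filter and 7 with a finer clustering. The 28 d calls were each kept in 3 or 4 of 6 alternatives. Ratios turned above 1 for Pck1 (1.06) with a stricter filter, for Pcx (1.09) with a finer clustering, and for Fbp1 and Slc37a4 with either.

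The cluster led by those injury genes, compared after the data had been seen, was lower still. Its nuclei numbered 61 without injury and then 286 (64 h), 594 (96 h) and 330 (28 d). Against PT-like nuclei of the same library, the 5 genes other than Pck2 were called lower in 20 of 20 pairs, with ratios of 0.0571 to 0.457, where 5.46% of all genes were called lower without injury, 10.9% by 64 h, 8.46% by 96 h and 11.2% by 28 d. G6pc gave 2, 2, 2 and 7 UMIs there, with ratios of 0.178, 0.0571, 0.0817 and 0.157. Pck2 stood above its PT-like level in the cluster at 96 h (10.9, from 7 UMIs against 2) and 28 d (3.89, from 6 UMIs against 8), also under 20 UMIs. The 8 proximal carry-over genes summed to 0.492 of their PT-like level without injury, 0.271 by 64 h, 0.423 by 96 h and 0.429 by 28 d, so proximal transcripts as a group were lower in it too. At 600 UMIs per nucleus, 12.3% of its nuclei at 64 h held a UMI of any of the 5 genes, against 41.2% of PT-like nuclei. At 28 d the shares were 18.6% in the cluster and 46.6% in PT-like nuclei, with 13.1% in TAL-like nuclei.

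Without injury, no member was called different between the sorts in S3-marked nuclei on the CPM scale. The ratios were 0.782 to 1.34 for the 5 genes with enough UMIs. The S3 mark held different nuclei in each sort. Cluster 13, led by Cyp7b1 and Slc22a7, held 83.5% of them in the GFP-negative library but 22.1% in the GFP-positive one. In the bands given above, the GFP-negative level of G6pc was the higher with Slc7a13 only and the lower with Cyp7b1. Whether the sorts are alike in matched S3 nuclei was not tested. Over 18 pairs of all, S1-marked and S3-marked PT-like nuclei, 2 were called lower in the GFP-positive than in the GFP-negative library and 0 higher. Both were in S1-marked nuclei, where Pck1 stood at 311 CPM in GFP-positive and 492 CPM in GFP-negative nuclei, a ratio of 0.633 (0.498 to 0.814), and Slc37a4 at 94.6 and 160 CPM, a ratio of 0.593 (0.388 to 0.942). The share of all genes called lower was 17.4% in all PT-like, 5.5% in S1-marked and 14.7% in S3-marked nuclei, and that called higher was 5.97%, 2.9% and 8.12%. G6pc stood at 120 CPM in GFP-positive and 121 CPM in GFP-negative S1-marked nuclei, a ratio of 0.990 (0.618 to 1.68). The GFP-negative library held 101 S1-marked nuclei, and on the TMM scale these lower calls are lost, with ratios of 0.753 for Pck1 and 0.705 for Slc37a4. On that scale Pcx was called higher in GFP-positive nuclei, with 1.53 (1.31 to 1.81) in all PT-like and 1.59 (1.28 to 1.97) in S3-marked nuclei.

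Over 56 sums of a class and a library with at least 50000 UMIs, the levels of the members were set beside those of 9730 genes as log2 values with 10 CPM added. The sums share libraries, depth and proximal transcripts in other classes, so the correlations describe likeness alone. Pck1 was most like Hgd, an enzyme of tyrosine breakdown (Pearson r 0.876), the amino acid carrier Slc6a20b (0.874) and Hnf4aos (0.860), and Fbp1 was most like Slc6a20b (0.877), Cryl1 (0.872) and Snx29 (0.868). G6pc was most like Miox, the inositol oxygenase of the proximal tubule (0.772), and Slc37a4 was most like Xylb, xylulokinase (0.858), and Dao, an amino acid oxidase (0.853). Pcx had its nearest gene at 0.772, Pecr of peroxisomes. Among the members, Pck1 and Fbp1 were the closest pair (0.833), G6pc and Slc37a4 reached 0.739, and Pck2 ran below 0 with each of the others.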

How the data were processed

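Per the submitters' processing notes, the authors used bcl2fastq 2.17, STAR 2.5.1b and Cell Ranger 2.1. The deposited values are UMI counts per gene and nucleus, and how barcodes were called is not given in the sources used here. Barcodes under 200 genes or over 10% mitochondrial UMIs were dropped. Scanpy 1.11.5 normalised to 10000 counts per nucleus and used 2000 variable genes, without the 6 members, then 30 principal components, 15 neighbours per nucleus and the Leiden method at resolution 1.0. TMM factors came from edgeR 4.0.16 under R 4.3.3. The other tools were scikit-learn 1.9.0, pandas 2.3.3, scipy 1.17.1, numpy 2.4.6, igraph 0.11.9 and matplotlib 3.10.9 under Python 3.11.15. No doublets were removed, and a cluster whose nuclei were deep and whose markers were mixed was left unnamed.

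Clusters were named from marker lists by mean log2 level over the 25th percentile of clusters, with a margin of 0.3 and at least 3 detected markers. The naming limits, the members and the pathway lists were chosen with earlier results of these data known. Marked nuclei were summed per library. With 1 library per group, ratios carry exact conditional Poisson intervals at 95% and no test between groups was made. Genes with more UMIs reach a call more readily. All members were named, and of each list the genes with a called ratio were eligible. The comparison script was tested on simulated counts. Alternatives covered the marks, filters, resolution, depth thinned to 600 UMIs, TMM scaling and segment mix. The carry-over genes were Slc34a1, Slc5a2, Slc5a12, Slc22a6, Slc22a8, Slc13a1, Slc6a19 and Slc27a2. Gene coordinates came from the GENCODE annotation of the files' build, and promoters from RefSeq. Protein sequences were not used here. Some genes of the lists are not reported here by name.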

Additional observations from a re-analysis of the deposited data

How the results depend on the processing

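No paired analysis was possible because each group had 1 library and no test was made between groups. For single genes, 1326 of 1423 values under the alternatives lay within the counting interval of the reported value, 90 moved outside it and 7 called values changed direction. A further 6 ratios, and 3 settings of other ratios, had 0 UMIs in 1 sum and gave no value. G6pc in S1-marked over S3-marked nuclei stayed above 1, at 1.28 to 1.79 without injury and 1.95 to 2.35 at 28 d, and Pck1 stayed below 1, at 0.586 to 0.676 and 0.465 to 0.641. The 5 higher S1 over S3 calls became 2 when nuclei were marked by the marker pair with more UMIs, 3 with marked nuclei of any cluster, 3 with a minimum of 400 genes and 5% mitochondrial UMIs, and 1 at 600 UMIs per nucleus, and the 2 lower calls became 1 with the pair with more UMIs. For IRI in S1-marked nuclei, 1 higher call became 2 with marks at 2 UMIs, with the pair with more UMIs, with any cluster and with no barcode filter, and 3 lower calls became 5 with TMM. In S3-marked nuclei, 2 higher calls became 1 with marks at 2 UMIs, at 600 UMIs or with TMM, and 0 with single markers, and 4 lower calls became 2 with marks at 2 UMIs or at resolution 0.5 or 2.0, and 8 with TMM. In all PT-like nuclei, 5 lower calls became 3 with no filter or at resolution 0.5 or 2.0, and 8 with TMM, and 1 higher call became 2 at resolution 0.5 or with no cell type call, and 3 with the uninjured mix of marks, counted by fold alone. The 1 lower call against other segments became 0 at resolution 0.5. For the sort, 2 lower calls became 0 and 0 higher became 2 with TMM. The 14 lower calls of injury-marked nuclei became 4 with 400 genes and 5%, and 7 at resolution 2.0. Pcx in S3-marked nuclei at 64 h turned to 1.07 at 600 UMIs. At 28 d the injury-marked ratios turned to 1.06 for Pck1, 1.17 for Fbp1 and 1.32 for Slc37a4 with 400 genes and 5%, and to 1.09 for Pcx, 1.25 for Fbp1 and 1.26 for Slc37a4 at resolution 2.0. The cause of these shifts was not tested. None of the members was among the variable genes, so clustering with them allowed was identical. The 96 h library was the shallowest, with a median of 484 UMIs per barcode, and Pck2 was limited by its few UMIs in every library.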
